A study of Arabidopsis thaliana with 20 samples.

Results

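The libraries of *cer7* plants, which lack or have less of a core subunit of the RNA exosome, were set directly against the libraries of *ripr* plants, which lack a protein thought to connect this exosome to the Ski complex. These were 11 of the 20 libraries of the series: 5 of *cer7* and 6 of *ripr*, taken by their labels, each holding the 21 and 22 nt small RNA reads counted per gene. The *cer7* libraries were 3 of the line labelled cer7-gabi, the T-DNA line GK_089C02 that the study calls *cer7-3*, and 2 of the line labelled cer7-sail (replicates 1 and 3), a second insertion line. The *cer7-3* line was described as a possible knockdown. The *ripr* libraries were 3 each of riprT and riprC, in which Cas9 left 1 inserted T or C in the coding sequence. Each comes from 1 edited plant from whose offspring the Cas9 transgene had been removed. The 3 wild-type Col-0 libraries served as the background level. Both mutants were made in Col-0, which lacks a working copy of SOV, a cytoplasmic 3′ to 5′ exonuclease that acts beside the exosome, so every library shares this defect. Each library was made from closed flower buds pooled from 4 plants, grown at 20 °C for 3 weeks in 12 h light and then for 3 weeks in 16 h light. The replicates of a line were grown at different dates and in different chambers.

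The cytosolic RNA exosome degrades mRNAs from their 3′ ends. It receives them from the Ski complex, a helicase that threads the RNA towards it, and in *Arabidopsis* RST1 and RIPR are thought to link the 2 complexes. An mRNA that is not degraded can be copied into double-stranded RNA by RDR6 with SGS3 and cut by Dicer-like proteins into small RNAs of 21 and 22 nt, known as rqc-siRNAs because they arise where RNA quality control fails. RRP45B/CER7 is 1 of the ring subunits of the exosome itself, and the direct comparison shows at which genes the siRNAs of the 2 mutants differ. It does not show which mutant departs from Col-0, so Col-0 values are given beside it at many of the genes. The measurement is of all 21 and 22 nt reads counted on a gene, not of the mRNA they come from. These reads are called siRNAs here, and whether they are siRNAs at each gene was not tested.

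The *ripr* edit lies in the first part of the coding sequence. The stretch is printed because it defines the mutant, on the coding strand of *AT5G44150* in TAIR10.1 (chr5:17764910-17764939, minus strand), with the 2 bases between which the extra base sits in capitals. Read through from the annotated start codon, the reference frame stops at codon 356, the frame with an inserted T at codon 60 and the frame with an inserted C at codon 65.
*RIPR* coding strand at the edit: tctgcacttccgtcGAattgggatcggtat

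The libraries held between 305475 and 522464 counts in *cer7* and between 193616 and 371040 in *ripr*, against 203245 to 230727 in Col-0. Levels are given as CPM, counts scaled to 1000000 counts on tested genes and corrected by the trimmed mean of M-values (TMM). A level of 3 counts in 1 library corresponded to between 7.67 and 12.8 CPM in *cer7* and between 8.67 and 15.7 CPM in *ripr*. *XTH9* alone took 13.9% to 19.7% of all counts in the *cer7* libraries, against 1.71% to 5.25% in the *ripr* libraries. No replicate pair of a line was alike within sampling noise, and chi-square divided by its degrees of freedom ran from 3.79 to 11.8 over the 10 pairs. The labels do not say whether all libraries came from separately grown plants beyond the different dates and chambers. The mutated genes could not serve as a check of the labels: siRNAs of *CER7* were counted 1 to 8 times in *cer7* and 3 to 8 times in *ripr* libraries, and those of *RIPR* 0 to 4 and 0 to 1 times. Of the 8 floral organ identity genes listed as a tissue check, 4 were abundant enough to test, and none was called. All 4 had a positive log2 fold change of *cer7* over *ripr*, from 0.32 at *SEP3* to 1.21 at *SEP2* (edgeR adjusted p = 0.02 at *SEP2*). At *SEP2* every *cer7* library lay above every *ripr* library, which held for 3.74% of all tested genes. The summed level of the 8 was 196 to 326 CPM in *cer7*, 100.2 to 204.5 CPM in *ripr* and 115 to 163 CPM in Col-0. Small RNA levels are not mRNA levels, and the part of tissue composition in the results was not tested.

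Between *cer7* and *ripr*, 84 of 2916 tested genes differed by more than 2-fold at an adjusted p below 0.01 (edgeR quasi-likelihood test with Benjamini-Hochberg adjustment): 73 were higher in *cer7* (2.50% of tested genes) and 11 were lower (0.377%). The genes higher in *cer7* were histone H4 genes, xyloglucan endotransglucosylase/hydrolases, dehydrins, S-adenosylmethionine decarboxylases, cytosolic Hsp90 genes and *CER3*, among others. Their median log2 fold change was 2.13 (range 1.01 to 6.58), beside 0.03 over all tested genes. The genes lower in *cer7* had a median log2 fold change of −1.41 (range −2.69 to −1.10), and the auxin response factor gene *ARF10* and the potassium transporter gene *HAK5* had the most siRNAs of them in *ripr*. At 55 of the 73 genes every *cer7* library lay above every *ripr* library, which held for 3.74% of all tested genes. At 10 of the 11 every *cer7* library lay below every *ripr* library, which held for 2.06% of all tested genes. The means of both *cer7* lines were above the means of both *ripr* lines at all 73 genes, and below both at all 11. Over all tested genes 773 (26.5%) had the first order and 697 (23.9%) the second. The direction held within each replicate number as well, that is in each set of libraries that share a number, at all 73 and all 11. Over all tested genes it was upward in each for 631 (21.6%) and downward for 640 (21.9%). The called genes were chosen for this difference, so these counts are a description. With library sizes in place of TMM factors the split was 54 higher and 69 lower, and the median log2 fold change of all tested genes was −0.27. The 11 lower genes were called under both, and 53 of the 73 higher genes.

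**Figure D1:**
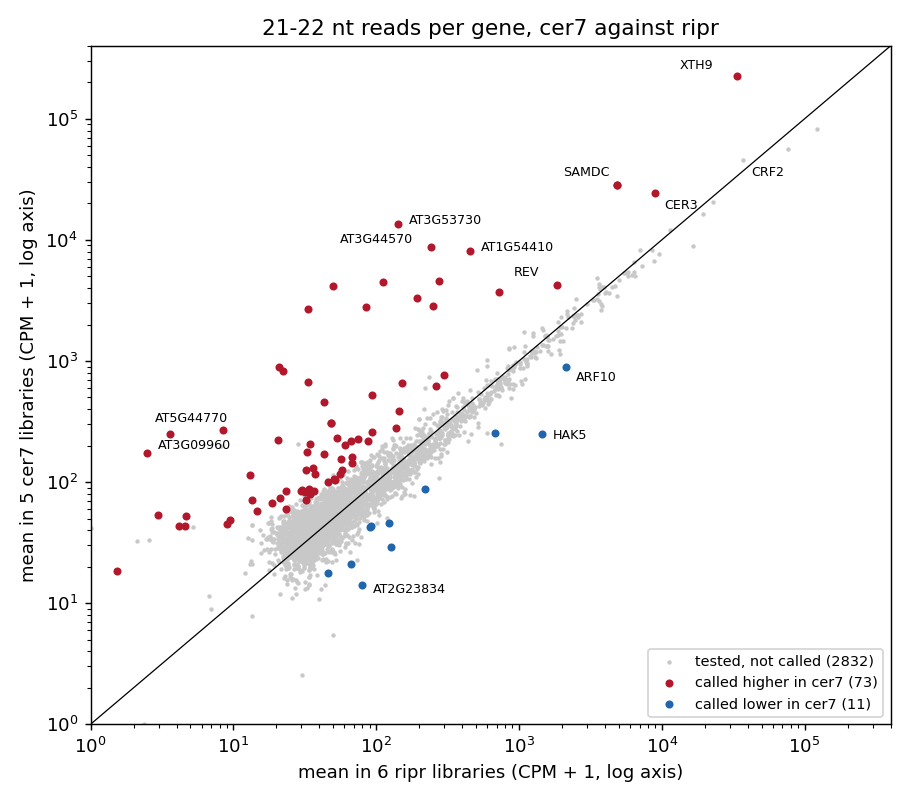
Mean level in the 5 cer7 libraries (vertical) against the mean in the 6 ripr libraries (horizontal), both as CPM + 1 on log axes, 1 point a tested gene; the diagonal marks equal levels. The 73 genes called higher in cer7 (red) lie above the diagonal up to XTH9 at the top right, and the 11 called lower (blue) lie below it.

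The 73 genes stood differently to the wild type. The Col-0 mean was below both mutants at 58 of them, between the mutants at 12 and above both at 3. At the 11 genes lower in *cer7*, the Col-0 mean was below both mutants at 2, between them at 5 and above both at 4. Over all 2916 tested genes the Col-0 mean was below both at 1311, between them at 471 and above both at 1134. Over the 73 genes the median of the mean levels was 205 CPM in *cer7* and 45.3 CPM in *ripr*, beside 16.9 CPM in Col-0. Over the 11 it was 42.1 CPM in *cer7* and 123 CPM in *ripr*, beside 76.9 CPM in Col-0. Of the 73 higher genes 71 had an annotation in the reference. These were shorter than tested genes in general, with a median annotated length of 1650 bp against 2270 bp over all tested genes, and 31% of them had a single exon against 18.3%. This is a description of the annotation and was not tested. Another annotated gene overlapped 13 of them, against 667 of the 2736 annotated genes among all tested. Strand use in the counting is not given in the sources used here. The 71 lay on all 5 chromosomes, 18, 10, 12, 10 and 21 of them on chromosomes 1 to 5. The study's own list of loci that gain siRNAs in *cer7* was drawn up from these libraries, so a higher level in *cer7* is partly fixed by it. Of its 349 loci 324 were tested here. Of these, 58 were higher in *cer7* than in *ripr* (17.9%, beside 2.50% of all tested genes). Only *ARF10* was lower (0.309%, beside 0.377% of all tested genes).

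**Figure D2:**
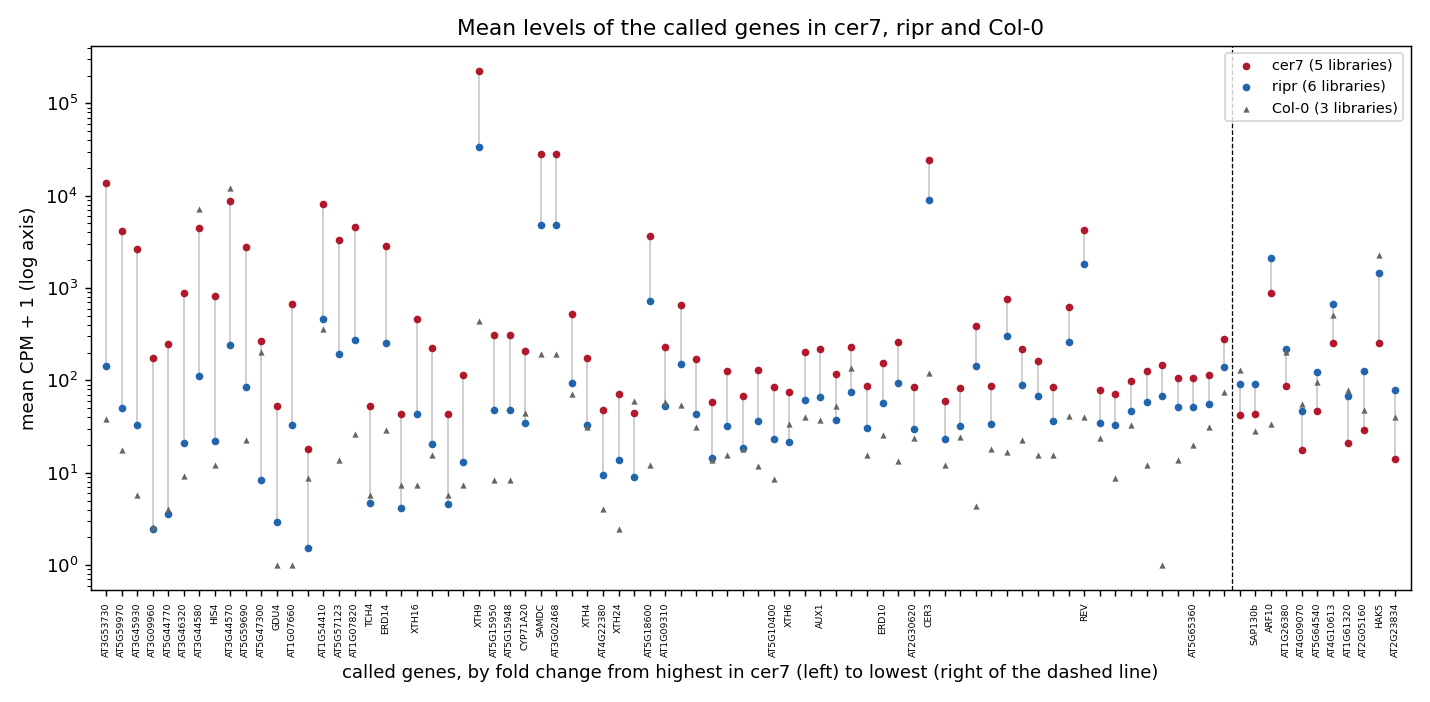
Mean CPM + 1 (log axis) of the 84 called genes in cer7 (red), ripr (blue) and Col-0 (grey triangles), ordered by fold change from highest in cer7 on the left, with the genes taken by the naming rule labelled; the 11 genes lower in cer7 stand right of the dashed line. At 58 of the 73 genes on the left, Col-0 lies below both mutants, which held for 1311 of all 2916 tested genes.

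Histone H4, the core histone that pairs with H3 in the nucleosome and is made mainly while DNA is replicated, is encoded by 8 genes, and all 8 were called higher in *cer7*, beside 2.50% of all tested genes. Their median log2 fold change was 5.29, beside 0.03 over all tested genes. *AT3G46320*, *AT2G28740* and *AT1G07660* were abundant mainly in *cer7*, with 2 to 12, 2 to 12 and 3 to 17 counts in the *ripr* libraries. Passing the filter on low counts therefore partly fixed that all 8 were tested and called. The *cer7* libraries were not alike in their H4 levels. The most abundant, *AT3G53730* (chr3:19912385-19913515), had 313, 13867 and 1259.8 CPM in the *cer7-gabi* libraries and 28204 and 24333 CPM in the *cer7-sail* libraries, against 66.8 to 330 CPM in the *ripr* libraries (median 106) and 20.4, 38.3 and 52.9 CPM in Col-0. The 8 genes summed to 1035, 32585 and 2607 CPM in the *cer7-gabi* libraries and 61792 and 52898 CPM in the *cer7-sail* libraries, against 549 to 893 CPM in *ripr* and 86.7 to 163 CPM in Col-0. The high libraries were *cer7-gabi* replicate 2 and both of *cer7-sail*, while *cer7-gabi* replicates 1 and 3 lay far below them and above the *ripr* range.

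Of the 8 genes, *AT1G07820* had 368, 5341 and 728 CPM in the *cer7-gabi* libraries and 8598 and 8048 CPM in the *cer7-sail* libraries, against 222 to 319 CPM in the *ripr* libraries (median 270.3), and *AT5G59970* and *AT3G45930* also had every *cer7* library above every *ripr* library. At the other 5 the lowest *cer7* libraries overlapped *ripr*. *AT3G46320*, for instance, had 20.1, 1151 and 21.8 CPM in the *cer7-gabi* libraries and 1493 and 1748 CPM in the *cer7-sail* libraries, against 8.67 to 35.7 CPM in the *ripr* libraries (median 16.4), so that *cer7-gabi* replicates 1 and 3 were within the *ripr* range. The log2 fold changes ran from 4.08 at *AT1G07820* (standard error 0.609, edgeR adjusted p = 0.000343) to 6.58 at *AT3G53730* (standard error 0.91, edgeR adjusted p = 0.000152). These calls rested on a spread estimated over all 20 libraries. With only the 11 *cer7* and *ripr* libraries in the fit, 0 of the 8 passed (edgeR adjusted p from 0.0105 to 0.0314), with log2 fold changes of 4.09 to 6.59. With *cer7-gabi* as the only *cer7* line 4 of the 8 passed, with *cer7-sail* all 8. With *riprT* as the only *ripr* line 4 of the 8 passed, and with *riprC* 2 (edgeR adjusted p up to 0.0399 and 0.0655). The call of *AT1G07660* was lost without any 1 of 8 libraries, all but *cer7-gabi* replicates 1 and 3 and *cer7-sail* replicate 1 (edgeR adjusted p from 0.0114 to 0.0164).

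The H4 genes share coding sequence to differing degrees, which bears on how reads were shared among them. Their coding sequences of 312 bases were between 78.8% and 98.1% identical over the 28 pairs. Between 58.3% and 98.7% of the 21-base words of each gene occurred once in the genome, beside a median of 97.7% over all tested genes. The share was 98.7% at *AT3G53730* and 97.1% at *AT2G28740*, and at most 81.6% (*AT5G59970*) at the others. Bases 61 to 90 of the coding sequence are printed for each to show this, from the RefSeq annotation of TAIR10.1, with bases other than the commonest in capitals. *AT3G45930*, *AT3G46320*, *AT5G59690* and *AT5G59970* are the same over the whole stretch, so a read from it could have come from any of them, and the division of counts among these genes is uncertain.
AT3G53730: aaAgtActCagagacaacatccaaggGatT
AT1G07660: aaggttctgagGgaTaacatTcaaggaatc
AT1G07820: aaggttctgagGgaTaacatTcaaggaatc
AT2G28740: aaggttctAagagacaacatTcaaggaatc
AT3G45930: aaggttctgagagacaacatccaaggaatc
AT3G46320: aaggttctgagagacaacatccaaggaatc
AT5G59690: aaggttctgagagacaacatccaaggaatc
AT5G59970: aaggttctgagagacaacatccaaggaatc

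**Figure D3:**
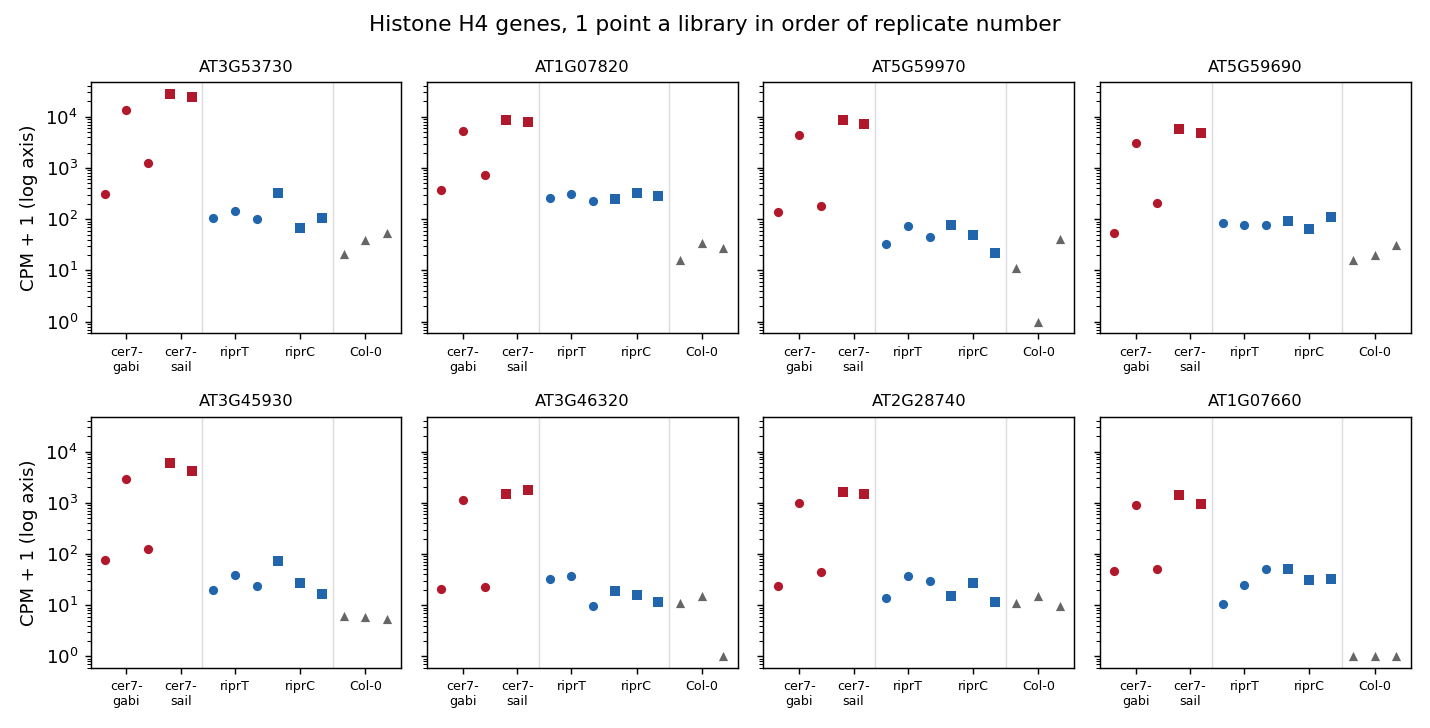
CPM + 1 (log axis) of the 8 histone H4 genes in each library, 1 panel a gene, with cer7 in red (circles cer7-gabi, squares cer7-sail), ripr in blue (circles riprT, squares riprC) and Col-0 as grey triangles, in order of replicate number. In every panel cer7-gabi replicate 2 and both cer7-sail libraries stand far above the other libraries.

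Other histone genes showed smaller differences. Of 38 listed genes for H1, H2A, H2B and H3, 18 were tested, 3 were called higher in *cer7* (16.7%, beside 2.50% of all tested genes) and none lower, with a median log2 fold change of 0.83. The H3 gene *AT5G10400* had 54.6, 79.3 and 51.8 CPM in the *cer7-gabi* libraries and 76.4 and 157 CPM in the *cer7-sail* libraries, against 15.7 to 28.9 CPM in the *ripr* libraries (median 21.6) (log2 fold change 1.85, standard error 0.356, edgeR adjusted p = 0.000762). Its *cer7-sail* replicate 3 was the highest library, apart from the other *cer7* libraries. The H3 gene *AT5G65360* had 104 ± 23.1 CPM in *cer7* and 50.2 ± 11 CPM in *ripr* (SD, n = 5 and 6; log2 fold change 1.05, standard error 0.226, edgeR adjusted p = 0.00266), and the linker histone gene *AT2G30620* had 83.8 ± 13.3 CPM in *cer7* and 29 ± 13.3 CPM in *ripr* (SD, n = 5 and 6; log2 fold change 1.48, standard error 0.31, edgeR adjusted p = 0.00197). The call of *AT5G65360* was lost when *cer7-gabi* replicate 1, *cer7-gabi* replicate 2 or *riprT* replicate 3 was left out (edgeR adjusted p from 0.0119 to 0.0161).

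Xyloglucan endotransglucosylase/hydrolases (XTHs) cut and rejoin the xyloglucan chains of the cell wall and let growing cells loosen it. Of 33 family members, 7 were tested, and 6 were higher in *cer7*, beside 2.50% of all tested genes. *TCH4*, *XTH24* and *XTH6* were abundant mainly in *cer7*, so that passing the filter on low counts partly fixed this count. *XTH9* (chr4:1415617-1417444) was the most abundant siRNA source of all tested genes in *cer7*, with 221308, 263241 and 241243 CPM in the *cer7-gabi* libraries and 171161 and 232550 CPM in the *cer7-sail* libraries. The *ripr* libraries held 17856, 29926 and 55473 CPM (lowest, median and highest), against 372, 383 and 559.6 CPM in Col-0. No *cer7* library overlapped a *ripr* library, and every *ripr* library was far above Col-0. The log2 fold change between *cer7* and *ripr* was 2.74 (standard error 0.301, edgeR adjusted p = 1.56e-05), and it was between 2.42 and 2.90 under all alternatives. Against the same Col-0 libraries, *XTH9* had log2 fold changes of 9.01 in *cer7* and 6.27 in *ripr*.

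*XTH16* was much less abundant and differed in the same direction. It had 518, 547 and 515 CPM in the *cer7-gabi* libraries and 326 and 379 CPM in the *cer7-sail* libraries, against 15.7 to 68.4 CPM in the *ripr* libraries (median 42.7) and 10.2, 0 and 8.81 CPM in Col-0 (log2 fold change 3.38, standard error 0.305, edgeR adjusted p = 1.35e-08). *XTH4* had 147, 171 and 196 CPM in the *cer7-gabi* libraries and 153 and 213 CPM in the *cer7-sail* libraries, against 15.7 to 47.2 CPM in the *ripr* libraries (median 30.2) and 45.9, 14.4 and 30.8 CPM in Col-0. Its *ripr* libraries overlapped Col-0 and none of them reached a *cer7* library (log2 fold change 2.47, standard error 0.252, edgeR adjusted p = 3.02e-08). *XTH6* averaged 73.4 ± 13.3 CPM in *cer7* and 20.3 ± 6.2 CPM in *ripr* (SD, n = 5 and 6), and its Col-0 mean of 33.1 CPM lay between them (log2 fold change 1.84, standard error 0.284, edgeR adjusted p = 3.44e-05). *TCH4*, a touch-induced member of the family, and *XTH24* were rare in *ripr*. *TCH4* had 81 counts over the *cer7* libraries and 6 over the *ripr* libraries, a ratio per scaled library size of 14.8 (exact conditional 95% interval 6.5 to 41.5, which covers counting error only). *XTH24* averaged 70.7 ± 23.5 CPM in *cer7* and 12.6 ± 14.2 CPM in *ripr* (SD, n = 5 and 6; log2 fold change 2.42, standard error 0.448, edgeR adjusted p = 0.000479), and without *riprT* replicate 3, its highest *ripr* library, its log2 fold change was 3.14. The member that was not called, *XTH26*, averaged 13.1 CPM in *cer7* and 43.1 CPM in *ripr* (log2 fold change −1.83, edgeR adjusted p = 0.114).

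Expansin A4, a wall-loosening protein, and EXORDIUM, which promotes cell expansion, are 2 further cell wall genes that were called. *EXPA4* had 69, 164 and 46.4 CPM in the *cer7-gabi* libraries and 169 and 119 CPM in the *cer7-sail* libraries, against 6.28 to 20.8 CPM in the *ripr* libraries (median 10.9) and 6.36 CPM on average in Col-0 (log2 fold change 3.18, standard error 0.387, edgeR adjusted p = 8.05e-07). *EXO* had 109, 136 and 90 CPM in the *cer7-gabi* libraries and 145 and 165.9 CPM in the *cer7-sail* libraries, against 23.1 to 44 CPM in the *ripr* libraries (median 37) (log2 fold change 1.85, standard error 0.297, edgeR adjusted p = 6.31e-05). In both genes the lowest *cer7* library stood above the highest *ripr* library. The pectin lyase-like gene *AT4G24780* averaged 58.6 ± 21.6 CPM in *cer7* and 22.3 ± 9.86 CPM in *ripr* (SD, n = 5 and 6; log2 fold change 1.42, standard error 0.342, edgeR adjusted p = 0.00786). *GASA6*, a gibberellin-regulated gene, averaged 81.9 ± 20.5 CPM in *cer7* and 30.9 ± 6.52 CPM in *ripr* (SD, n = 5 and 6; log2 fold change 1.41, standard error 0.277, edgeR adjusted p = 0.000965). These 4 genes were not on a list and were picked from among the called genes after their values were seen.

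Dehydrins are hydrophilic proteins that accumulate in cold and drought and during seed drying. Of 10 listed genes 4 were tested and 3 were higher in *cer7*, beside 2.50% of all tested genes. The summed level of the 10 was 5802 to 16322 CPM in *cer7*, 628 to 1159 CPM in *ripr* and 224 to 819.5 CPM in Col-0. *AT1G54410* (chr1:20309473-20310850) had 7823, 7488 and 9865 CPM in the *cer7-gabi* libraries and 3923 and 11677 CPM in the *cer7-sail* libraries, against 349 to 545 CPM in the *ripr* libraries (median 449), and 184, 177 and 709 CPM in Col-0. The *ripr* libraries fell inside the range of the Col-0 libraries, and the lowest *cer7* library, *cer7-sail* replicate 1, was still several times the highest *ripr* library (log2 fold change 4.16, standard error 0.327, edgeR adjusted p = 1.11e-07). Against the same Col-0 libraries its log2 fold changes were 4.50 in *cer7* and 0.34 in *ripr*. *ERD14* differed in that *ripr* was itself above Col-0. It had 1975, 1949 and 4210.1 CPM in the *cer7-gabi* libraries and 1658 and 4365 CPM in the *cer7-sail* libraries, against 143 to 430 CPM in the *ripr* libraries (median 229) and 15.3, 23.9 and 44.1 CPM in Col-0 (log2 fold change 3.51, standard error 0.381, edgeR adjusted p = 1.05e-05). *ERD10* averaged 154 ± 58.4 CPM in *cer7* and 55.4 ± 25.9 CPM in *ripr* (SD, n = 5 and 6; log2 fold change 1.51, standard error 0.325, edgeR adjusted p = 0.00305), its highest *ripr* library overlapped *cer7*, and the call was lost without *cer7-gabi* replicate 3, *cer7-sail* replicate 3 or *riprT* replicate 2 (edgeR adjusted p from 0.0113 to 0.0148). *COR47*, the fourth tested, had a log2 fold change of 0.86 (95% interval −0.10 to 1.82).

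S-adenosylmethionine decarboxylase makes the aminopropyl donor for the polyamines spermidine and spermine. Both tested genes were higher in *cer7*, beside 2.50% of all tested genes, and each was listed in the table beside a second identifier with the same or nearly the same counts, *AT3G02468* for *SAMDC* (*AT3G02470*) and *AT5G15948* for *AT5G15950*. The reads of each pair cannot be told apart, so the 4 called identifiers stand for 2 loci. *SAMDC* (chr3:508886-511561) had 26985, 21317 and 51893 CPM in the *cer7-gabi* libraries and 15132 and 26804 CPM in the *cer7-sail* libraries, against 2558 to 10123 CPM in the *ripr* libraries (median 3433) and 209, 163 and 203 CPM in Col-0 (log2 fold change 2.55, standard error 0.526, edgeR adjusted p = 0.006). Both mutants were far above Col-0, the groups did not overlap, and riprT replicates 1 and 2 were the highest *ripr* libraries. The adjusted p moved above 0.01 when any of 8 libraries was left out (all but *cer7-gabi* replicate 2, *cer7-sail* replicate 1 and *riprT* replicate 2), to between 0.0121 and 0.0243 in edgeR, with log2 fold changes of 2.22 to 2.87 over all 11. *AT5G15950* (chr5:5205869-5208036) had 247, 171 and 611 CPM in the *cer7-gabi* libraries and 117 and 399.9 CPM in the *cer7-sail* libraries, against 28.7 to 107 CPM in the *ripr* libraries (median 32.6) and 0, 0 and 22 CPM in Col-0 (log2 fold change 2.67, standard error 0.45, edgeR adjusted p = 0.000671).

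*CER3* (chr5:23420184-23424117) is needed for the alkanes of the stem wax, and loss of *CER7* reduces the wax of stems through siRNAs against it. It had 16583, 32982 and 27974 CPM in the *cer7-gabi* libraries and 9889.6 and 34469.7 CPM in the *cer7-sail* libraries, against 4777, 8899 and 15016 CPM (lowest, median and highest) in *ripr* and 148, 110 and 101 CPM in Col-0. All mutant libraries were far above Col-0. The *cer7* and *ripr* libraries overlapped, since *cer7-sail* replicate 1 lay below the 2 highest *ripr* libraries. The difference just passed both thresholds (log2 fold change 1.43, standard error 0.312, edgeR adjusted p = 0.00851, 95% interval 0.77 to 2.09). The call was lost without any 1 of 9 of the 11 libraries, all but *cer7-sail* replicate 1 and *riprT* replicate 2 (edgeR adjusted p from 0.0108 to 0.0296), and with only the 11 libraries of the 2 mutants in the fit (edgeR adjusted p = 0.0462). Of the 16 listed genes of wax synthesis and export 9 were tested. The other 8 were not called and had log2 fold changes between −0.09 and 0.65, the highest that of the wax exporter gene *ABCG11*.

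**Figure D4:**
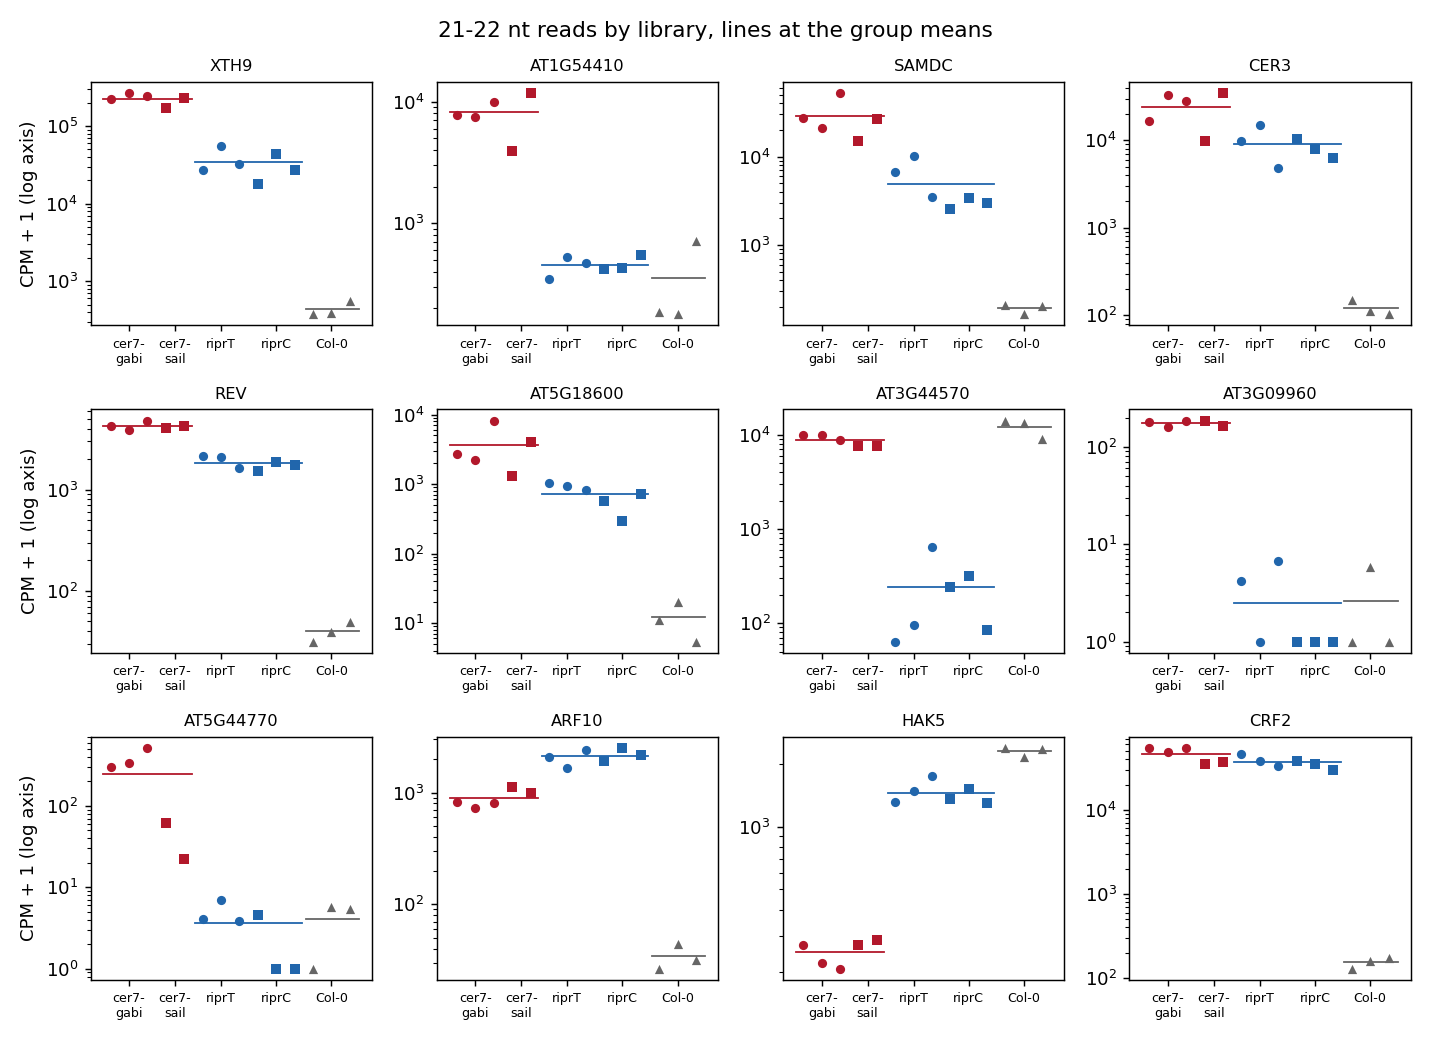
CPM + 1 (log axis) of 12 genes in each library, with cer7 in red (circles cer7-gabi, squares cer7-sail), ripr in blue (circles riprT, squares riprC) and Col-0 as grey triangles; horizontal lines are group means. XTH9, AT1G54410, SAMDC, REV and AT3G44570 show cer7 apart from and above ripr, CER3 overlaps, ARF10 and HAK5 lie lower in cer7, and CRF2 is nearly level at about the same height in both mutants.

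The class III HD-ZIP genes, which set the upper side of leaves and pattern the vasculature, are targets of miR165 and miR166, and cleavage by a miRNA leaves fragments that the exosome degrades. Of the 5 genes only *REV* was called higher in *cer7*, beside 2.50% of all tested genes. The miRNAs and the best-matching stretch of each spliced coding sequence are therefore printed, from RefSeq on TAIR10.1. The miRNAs have their seed (bases 2 to 8) in capitals and the targets the bases facing the seed. The stretches span an intron in each gene, lying for *REV* within chr5:24398787-24398898. *REV* and *HB-8* have the same 21 bases, 17 of which pair with miR166 by Watson-Crick rules, and *ATHB-15* pairs at 18.
miR165a-3p: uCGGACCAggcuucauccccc
miR166a-3p: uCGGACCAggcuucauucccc
REV: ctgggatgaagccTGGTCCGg
PHB: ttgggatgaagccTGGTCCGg
PHV: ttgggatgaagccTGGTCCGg
ATHB-15: ctggaatgaagccTGGTCCGg
HB-8: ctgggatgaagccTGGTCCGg

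*REV* had 4241, 3870.4 and 4794 CPM in the *cer7-gabi* libraries and 4023 and 4199 CPM in the *cer7-sail* libraries, against 1510.2 to 2154 CPM in the *ripr* libraries (median 1814) and 30.6, 38.3 and 48.5 CPM in Col-0. The groups did not overlap, and the spread within each was small (log2 fold change 1.20, standard error 0.134, edgeR adjusted p = 1.73e-07). *PHB*, with 4801 CPM on average in *cer7* and 3513 CPM in *ripr*, also had every *cer7* library above every *ripr* library, at a log2 fold change of 0.45 (95% interval 0.18 to 0.72) that did not pass the fold threshold. *PHV* had 0.42 (0.05 to 0.79), *HB-8* 0.10 (−0.47 to 0.67) and *ATHB-15* −0.31 (−0.67 to 0.05). *REV* overlaps the neighbouring annotated gene *AT5G60700*. *HB-8*, which shares the 21 bases of *REV*, averaged 87.8 CPM in *cer7* and 80.0 CPM in *ripr*, and whether *REV* and *HB-8* differ in this contrast was not tested.

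The auxin response factors *ARF10*, *ARF16* and *ARF17* are targets of miR160, and here the sign was the opposite one. The mature miRNA and its best-matching stretch in each are printed as above. For *ARF10* the stretch is coding sequence at chr2:12115741-12115761.
miR160a-5p: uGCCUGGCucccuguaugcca
ARF10: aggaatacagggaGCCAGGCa
ARF16: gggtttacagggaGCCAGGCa
ARF17: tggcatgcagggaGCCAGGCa

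*ARF10* had 825, 729 and 804 CPM in the *cer7-gabi* libraries and 1127 and 983 CPM in the *cer7-sail* libraries, against 1642, 2113 and 2515 CPM (lowest, median and highest) in *ripr* and 25.5, 43.1 and 30.8 CPM in Col-0. Every *cer7* library lay below every *ripr* library, and all of them were far above Col-0 (log2 fold change −1.25, standard error 0.157, edgeR adjusted p = 1.45e-06). *ARF17* had a log2 fold change of −0.79 (95% interval −1.18 to −0.39, edgeR adjusted p = 0.00919) and *ARF16* of −0.73 (−1.13 to −0.33, edgeR adjusted p = 0.0193), both short of the fold threshold and both with every *cer7* library below every *ripr* library, which held for 2.06% of tested genes. The miR167 targets *ARF6* and *ARF8* had −0.59 (−0.95 to −0.23) and −0.57 (−0.97 to −0.16), and neither was called. At *ARF6* every *cer7* library (354 to 834 CPM) also lay below every *ripr* library (919 to 1237 CPM), while at *ARF8* the libraries overlapped. All 3 miR160 targets had 7 of 7 bases paired to the seed. *ARF10* had 19, *ARF16* 18 and *ARF17* 20 of 21 bases paired.

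Among the other miRNA target families, no gene was called in the HAM, TIR1/AFB, SPL, TCP and MYB, NAC, AP2-type and GRF lists. These had 3, 4, 7, 7, 2, 4 and 4 tested members and median log2 fold changes between −0.23 and 0.13. Over all tested genes 2.50% were called higher and 0.377% lower, so at these list sizes the absence of calls says little. Summed over its list, the level of the HAM genes was 4574 to 5522 CPM in *cer7*, 4400.1 to 5787 CPM in *ripr* and 1705 to 2502 CPM in Col-0.

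**Figure D5:**
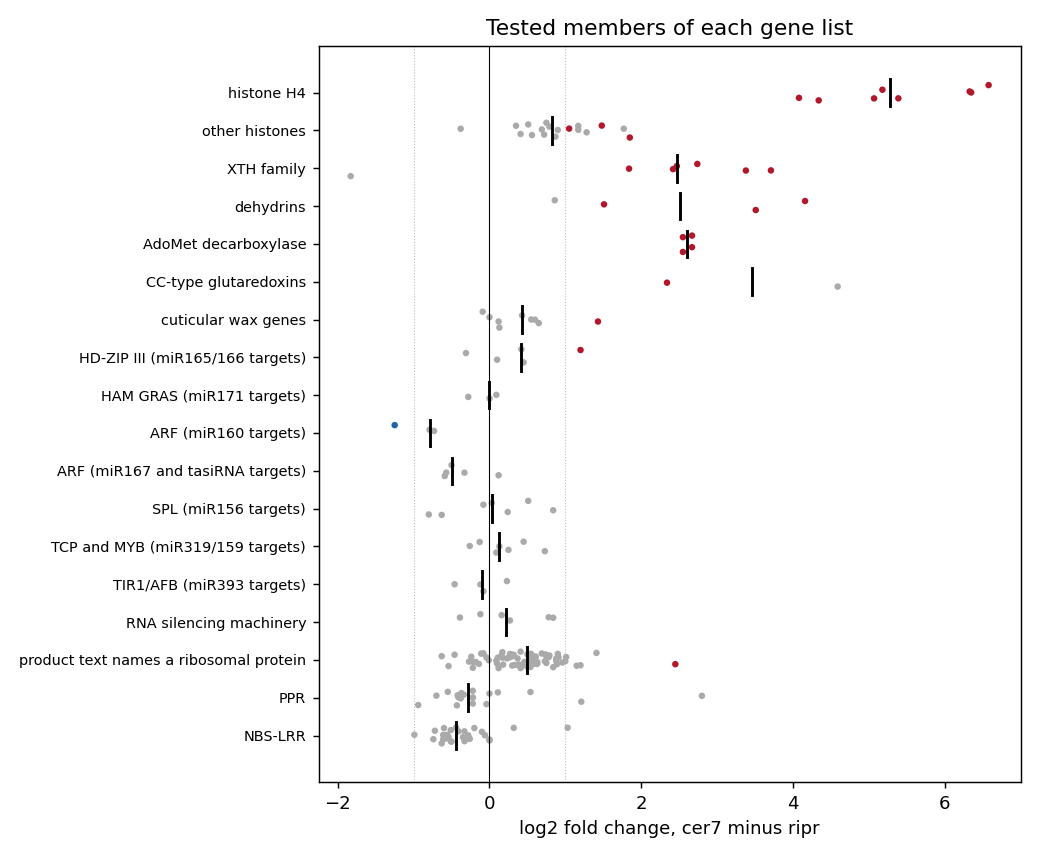
Log2 fold change, cer7 minus ripr, of the tested members of 18 gene lists, 1 point a gene (red called higher in cer7, blue called lower, grey not called), with black bars at the list medians and dotted lines at −1 and 1. All 8 histone H4 genes and 6 of 7 XTH genes are red, and the median of the PPR and NBS-LRR lists is below 0.

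*HSP81-3* and *HSP81-2* encode cytosolic Hsp90 chaperones and lie close together on chromosome 5. They share sequence, and 57.3% and 65.4% of their 21-base words occurred once in the genome, so their counts may in part be shared. *HSP81-3* had 247, 639.5 and 479.9 CPM in the *cer7-gabi* libraries and 213 and 1034 CPM in the *cer7-sail* libraries, against 53.4 to 128 CPM in the *ripr* libraries (median 93) and 66.3, 67 and 74.9 CPM in Col-0 (log2 fold change 2.49, standard error 0.328, edgeR adjusted p = 2.16e-05). *HSP81-2* had 325, 737 and 534 CPM in the *cer7-gabi* libraries and 302 and 1361 CPM in the *cer7-sail* libraries, against 136 to 169.5 CPM in the *ripr* libraries (median 149) and 81.6, 33.5 and 44.1 CPM in Col-0 (log2 fold change 2.10, standard error 0.285, edgeR adjusted p = 2.16e-05). Both were highest in *cer7-sail* replicate 3, and neither overlapped between *cer7* and *ripr*. *GSTU20*, a glutathione transferase gene, was raised in both mutants, with 384 ± 75.5 CPM in *cer7* and 144 ± 33.5 CPM in *ripr* (SD, n = 5 and 6) beside 3.4 CPM on average in Col-0 (log2 fold change 1.41, standard error 0.229, edgeR adjusted p = 7.57e-05). *GLX1*, a glyoxalase gene, averaged 203 ± 53 CPM in *cer7* and 59.7 ± 25.7 CPM in *ripr* (SD, n = 5 and 6) beside 39 CPM in Col-0 (log2 fold change 1.79, standard error 0.273, edgeR adjusted p = 3e-05). *GAPC2*, a glycolytic dehydrogenase gene, had the smallest difference of the 73, 277 ± 78.1 CPM in *cer7* and 138 ± 24.7 CPM in *ripr* (SD, n = 5 and 6; log2 fold change 1.01, standard error 0.212, edgeR adjusted p = 0.00199). *NIR1*, the nitrite reductase gene, averaged 78.5 ± 22.8 CPM in *cer7* and 33.5 ± 9.63 CPM in *ripr* (SD, n = 5 and 6; log2 fold change 1.19, standard error 0.278, edgeR adjusted p = 0.00588), beside 23 CPM in Col-0. *TGG2*, a myrosinase gene, averaged 227 ± 159.4 CPM in *cer7* and 73.5 ± 26.2 CPM in *ripr* (SD, n = 5 and 6; log2 fold change 1.62, standard error 0.365, edgeR adjusted p = 0.00703). Its Col-0 mean of 135 CPM lay between them, and *cer7* was not called against Col-0 (log2 fold change 0.72, edgeR adjusted p = 0.209). The lowest *cer7* library of *TGG2* had 92.7 CPM, below the highest *ripr* library at 107.6 CPM. The calnexin gene *CNX1*, a chaperone of the endoplasmic reticulum, averaged 115 ± 46.3 CPM in *cer7* and 55 ± 9.95 CPM in *ripr* (SD, n = 5 and 6; log2 fold change 1.04, standard error 0.256, edgeR adjusted p = 0.00916). The genes of this paragraph were picked from among the called genes after their values were seen.

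CC-type glutaredoxins are small thiol proteins particular to land plants. Of 21 listed, 2 were tested and 1 was called higher in *cer7*, beside 2.50% of all tested genes. This was *AT5G18600* (chr5:6183166-6184038), with 2717, 2249 and 8194 CPM in the *cer7-gabi* libraries and 1292 and 4028 CPM in the *cer7-sail* libraries, against 289 to 1030 CPM in the *ripr* libraries (median 769.9) and 10.2, 19.1 and 4.41 CPM in Col-0 (log2 fold change 2.34, standard error 0.429, edgeR adjusted p = 0.00223). With only the 11 *cer7* and *ripr* libraries in the fit *AT5G18600* was not called (edgeR adjusted p = 0.0176). *cer7-gabi* replicate 3 was the highest library and *cer7-sail* replicate 1 the lowest of *cer7*, which still lay above all *ripr* libraries. The other, *AT4G15700*, had a log2 fold change of 4.59 (95% interval 2.40 to 6.77) and an edgeR adjusted p of 0.0111, above the threshold, with averages of 198 CPM in *cer7* and 7.25 CPM in *ripr*. It reached 744 CPM in *cer7*, but at most 15.7 CPM in *ripr* and 8.81 CPM in Col-0. Passing the filter on low counts may therefore have partly fixed that it was tested and its direction.

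The study's list was drawn from these *cer7* libraries, so its genes were selected for being high in *cer7*. Of the 5 that it marks as known from earlier work on *cer7*, 4 were called higher in *cer7* (*AT1G09310*, *AUX1*, *CER3* and *ERD14*), beside 2.50% of all tested genes. *AT5G54940* was not called. The auxin influx carrier gene *AUX1* had 224, 151 and 142 CPM in the *cer7-gabi* libraries and 133 and 447 CPM in the *cer7-sail* libraries, against 36.7 to 92.2 CPM in the *ripr* libraries (median 67.6), and no library overlapped. *AT1G09310*, of the DUF538 family, had 112, 309.5 and 125 CPM in the *cer7-gabi* libraries and 274 and 323 CPM in the *cer7-sail* libraries, against 18.8 to 71.7 CPM in the *ripr* libraries (median 53.7) and 71.4, 4.78 and 96.9 CPM in Col-0, so that *ripr* and Col-0 overlapped and *cer7* stood above both. It overlaps the annotated gene *AT1G09320*, and *AUX1* was the only 1 of 12 listed auxin carriers with enough reads to test.

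Genes of RNA metabolism were also among the 73. *CPL1* and *CPL3* encode phosphatases of the RNA polymerase II C-terminal domain, and *RCF3* a KH-domain protein. *CPL1* had 572, 780.2 and 589 CPM in the *cer7-gabi* libraries and 378 and 766 CPM in the *cer7-sail* libraries, against 204 to 333 CPM in the *ripr* libraries (median 254) and 30.6, 33.5 and 57.3 CPM in Col-0 (log2 fold change 1.24, standard error 0.189, edgeR adjusted p = 3e-05). Its lowest *cer7* library was cer7-sail replicate 1, above the highest *ripr* library. *CPL3* averaged 83.5 ± 30.4 CPM in *cer7* and 35.7 ± 11 CPM in *ripr* and *RCF3* 104 ± 30.6 CPM in *cer7* and 50 ± 9.85 CPM in *ripr* (SD, n = 5 and 6), with log2 fold changes of 1.24 (standard error 0.29, edgeR adjusted p = 0.00581) and 1.06 (standard error 0.25, edgeR adjusted p = 0.00669), and both overlapped between the groups. *AN3*, a coactivator that works with growth-regulating factors, averaged 70.8 ± 17.3 CPM in *cer7* and 31.5 ± 15 CPM in *ripr* (SD, n = 5 and 6; log2 fold change 1.16, standard error 0.287, edgeR adjusted p = 0.00959). These 4 were picked after their values were seen. Of the 23 listed genes of the RNA silencing machinery 6 were tested and none was called, beside 2.50% higher and 0.377% lower of all tested genes. The median log2 fold change of the 6 was 0.21. *AGO1*, itself a miRNA target, averaged 1501 ± 390.5 CPM in *cer7* and 1630.3 ± 284 CPM in *ripr* (SD, n = 5 and 6), beside 306 CPM in Col-0, with a log2 fold change of −0.12 (95% interval −0.47 to 0.23). Among 332 genes whose annotation mentions a ribosomal protein, some of which, such as *LOS1* and *RPS1*, are not cytosolic ribosomal proteins, 81 were tested and 1, *AT4G22380*, was called higher (1.23%, beside 2.50% of all tested genes), with a median log2 fold change of 0.50 over the 81. *AT4G22380* averaged 47.3 ± 24.5 CPM in *cer7* and 8.45 ± 9.28 CPM in *ripr* (SD, n = 5 and 6; log2 fold change 2.45, standard error 0.595, edgeR adjusted p = 0.00834), and its libraries overlapped. Without *riprC* replicate 2 its log2 fold change was 3.13, while leaving out any other *ripr* library ended the call (edgeR adjusted p from 0.0121 to 0.0261).

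*AT5G57123* (chr5:23126874-23127724), an uncharacterized gene, had 822, 6226 and 1568 CPM in the *cer7-gabi* libraries and 4317 and 3701 CPM in the *cer7-sail* libraries, against 152 to 248 CPM in the *ripr* libraries (median 188) and 10.2, 23.9 and 4.41 CPM in Col-0 (log2 fold change 4.10, standard error 0.442, edgeR adjusted p = 1.22e-05). The *cer7* libraries spread widely and the *ripr* libraries little, and the 3 highest *cer7* libraries were the same 3 in which histone H4 was high. *AT1G52905* averaged 768 ± 210.4 CPM in *cer7* and 300.1 ± 63.8 CPM in *ripr* (SD, n = 5 and 6; log2 fold change 1.35, standard error 0.204, edgeR adjusted p = 2.87e-05), but only 36.4% of its 21-base words occurred once in the genome. *CYP71A20*, a cytochrome P450 gene, had 213, 207 and 259 CPM in the *cer7-gabi* libraries and 157 and 191 CPM in the *cer7-sail* libraries, against 14.9 to 49.1 CPM in the *ripr* libraries (median 34.7) and 51, 38.3 and 39.7 CPM in Col-0, where *ripr* was not above the wild type (log2 fold change 2.60, standard error 0.254, edgeR adjusted p = 1.45e-08).

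At a small set of genes *ripr* was the exception, in that *cer7* was close to Col-0 and *ripr* far below both. *AT3G44570*, annotated as a retrotransposon ORF-1 protein, and *AT3G44580*, uncharacterized, are neighbours at chr3:16158405-16159835 and chr3:16160338-16161837 on opposite strands. *AT3G44570* had 9997, 9943 and 8775 CPM in the *cer7-gabi* libraries and 7604 and 7559 CPM in the *cer7-sail* libraries, against 62.8, 169.5 and 636 CPM (lowest, median and highest) in *ripr* and 14134, 13283 and 9055 CPM in Col-0 (log2 fold change 5.18, standard error 0.585, edgeR adjusted p = 2.16e-05). *AT3G44580* had 5604, 5086 and 4507 CPM in the *cer7-gabi* libraries and 3303 and 4071 CPM in the *cer7-sail* libraries, against 26.2, 52.5 and 344 CPM (lowest, median and highest) in *ripr* and 8353, 8256 and 4917 CPM in Col-0 (log2 fold change 5.30, standard error 0.626, edgeR adjusted p = 2.95e-05). Both *ripr* lines were low and the highest *ripr* library at both genes was *riprT* replicate 3. Without it the log2 fold changes were 5.81 and 6.15. Of the 6 *rst1* libraries of the series, *rst1-2* replicate 1 had 1761 and 834 CPM at the 2 genes, against 9467 to 12497 and 5109 to 6033 CPM in the other 5. Against the same Col-0 libraries, *AT3G44570* had log2 fold changes of −0.47 in *cer7* and −5.65 in *ripr* and *AT3G44580* of −0.67 in *cer7* and −5.97 in *ripr* (edgeR adjusted p for *ripr* 4.04e-06 and 4.73e-06). Of their 21-base words, 75.5% and 77.3% occurred once in the genome.

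*AT5G47300*, an F-box gene (chr5:19198125-19199375), had 138, 174 and 264 CPM in the *cer7-gabi* libraries and 329.9 and 425 CPM in the *cer7-sail* libraries, against 0, 9.04 and 11.9 CPM (lowest, median and highest) in *ripr* and 102, 182 and 326 CPM in Col-0 (log2 fold change 4.96, standard error 0.465, edgeR adjusted p = 1.86e-07). The 2 *cer7-sail* libraries were the highest of *cer7*, and all *ripr* libraries were far below all others. *AT5G35370*, an S-locus lectin protein kinase gene that overlaps *AT5G35360*, averaged 43.8 ± 7.1 CPM in *cer7* and 8.02 ± 3.94 CPM in *ripr* (SD, n = 5 and 6), beside 59.3 ± 23.1 CPM in Col-0 (SD, n = 3), and *ripr* was again the low group (log2 fold change 2.37, standard error 0.382, edgeR adjusted p = 6.53e-05).

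At other genes *ripr* and Col-0 were both near 0 while *cer7* was not. *AT3G09960*, a calcineurin-like metallophosphoesterase gene (chr3:3061945-3063594), had 178, 158.6 and 183 CPM in the *cer7-gabi* libraries and 185 and 162 CPM in the *cer7-sail* libraries. In *ripr* it had 0 counts in 4 libraries and 1 and 2 counts in the other 2, and in Col-0 0 to 1 counts. With 275 counts over the *cer7* libraries and 3 over the *ripr* libraries, the ratio per scaled library size was 100.4 (exact conditional 95% interval 34 to 489.7). Its fitted log2 fold change, which at such counts depends on the prior count, was 6.32, and 7.22 without *riprT* replicate 3. It had the second lowest adjusted p of all tested genes (edgeR adjusted p = 3.21e-13), and the 5 *cer7* libraries agreed within a narrow range. The *rst1* libraries averaged 226 CPM. *AT5G44770*, a cysteine/histidine-rich C1 domain gene (chr5:18065012-18066696), had 299, 340.2 and 518 CPM in the *cer7-gabi* libraries and 60.4 and 21.3 CPM in the *cer7-sail* libraries. The *cer7* lines differed at this gene by a log2 fold change of 3.21 (*cer7-gabi* minus *cer7-sail*, edgeR adjusted p = 0.000126), the only gene of the 73 at which they did by the thresholds used here. In *ripr* it had 0 to 2 counts in each library, and the ratio of *cer7* to *ripr* was 97.9 (exact conditional 95% interval 41.6 to 303.0). It lies 299584 bp from *RIPR* on chromosome 5, the nearest of the called genes to either mutated gene. The *rst1* libraries averaged 528 CPM, and what sets *ripr* and Col-0 apart from the other libraries here was not tested.

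A further 4 genes were rare in *ripr* but unlike in the other groups. The *rst1* libraries averaged 3.15 CPM at *GDU4*, 32.1 CPM at *MEE65*, 45.1 CPM at *AT3G17530* and 46.9 CPM at *AT3G43970*. Col-0 averaged 4.76 CPM at *MEE65*, 6.46 CPM at *AT3G17530* and 7.72 CPM at *AT3G43970*. At *AT3G43970* *cer7* was not called against Col-0 (edgeR adjusted p = 0.262). *GDU4*, a glutamine dumper gene, had 14.4, 56.3 and 81.8 CPM in the *cer7-gabi* libraries and 20.1 and 89.3 CPM in the *cer7-sail* libraries and 83 counts in all, against 3 counts over the *ripr* libraries and 0 in Col-0, a ratio to *ripr* of 30.3 (exact conditional 95% interval 10 to 149.9). *MEE65* had 71 counts in *cer7* and 7 in *ripr*, a ratio of 11.1 (5.12 to 28.6), and overlaps 2 other annotated genes. *AT3G17530*, an F-box gene, had 60 and 6 counts, a ratio of 11 (4.75 to 31.0), with *cer7-gabi* replicate 1 at 2.88 CPM, inside the *ripr* range. *AT3G43970* had 31 and 1 counts, a ratio of 33.9 (5.66 to 1383.5). Its counts came from *cer7-gabi* at 34.5, 23 and 24.5 CPM, against 0 and 4.25 CPM in *cer7-sail*, a difference that was not called (edgeR adjusted p = 0.141). These intervals cover counting error only. The MATE efflux gene *AT3G03620* was not at 0 in any group. It averaged 66 ± 20.5 CPM in *cer7* and 17.7 ± 1.1 CPM in *ripr* (SD, n = 5 and 6), beside 17.1 CPM in Col-0 (log2 fold change 1.88, standard error 0.289, edgeR adjusted p = 3.38e-05).

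The 11 genes lower in *cer7* split by where Col-0 stood. *HAK5* (chr4:7796782-7802251), the high-affinity potassium uptake transporter that roots induce when potassium is short, had the lowest adjusted p of all tested genes. It had 270.3, 220 and 207 CPM in the *cer7-gabi* libraries and 269.6 and 285 CPM in the *cer7-sail* libraries, against 1295, 1426 and 1751 CPM (lowest, median and highest) in *ripr* and 2393, 2157 and 2357 CPM in Col-0. The order was *cer7* below *ripr* below Col-0, with no overlap between any of the 3 groups (log2 fold change −2.54, standard error 0.137, edgeR adjusted p = 7.81e-15). Against the same Col-0 libraries the log2 fold changes were −3.20 in *cer7* and −0.66 in *ripr*.

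*AT4G10613*, annotated as a reverse transcriptase-related gene (chr4:6560363-6561726), had 227, 228 and 264 CPM in the *cer7-gabi* libraries and 282 and 259.5 CPM in the *cer7-sail* libraries, against 556 to 800.5 CPM in the *ripr* libraries (median 676) and 607, 483 and 454 CPM in Col-0, with *cer7* below both (log2 fold change −1.43, standard error 0.163, edgeR adjusted p = 2.25e-07). *AT1G26380*, a berberine bridge enzyme-like gene, had 17.3, 118 and 70.9 CPM in the *cer7-gabi* libraries and 125 and 102 CPM in the *cer7-sail* libraries, against 131 to 257 CPM in the *ripr* libraries (median 234) and 214, 177 and 220.3 CPM in Col-0 (log2 fold change −1.37, standard error 0.265, edgeR adjusted p = 0.000836). *AT1G61320*, which encodes a leucine-rich repeat protein, averaged 20 ± 11.5 CPM in *cer7* and 66.2 ± 13.4 CPM in *ripr* (SD, n = 5 and 6), beside 76.9 CPM in Col-0 (log2 fold change −1.80, standard error 0.357, edgeR adjusted p = 0.00103). *AT4G09070*, annotated as related to a Mediator subunit, averaged 16.7 ± 6.6 CPM in *cer7* and 45.1 ± 7.71 CPM in *ripr* (SD, n = 5 and 6), beside 54 CPM in Col-0 (log2 fold change −1.41, standard error 0.32, edgeR adjusted p = 0.00471). In these 4 genes the *cer7* mean was the lowest, and the means of *ripr* and Col-0 were closer to each other than to it. With only the 11 *cer7* and *ripr* libraries in the fit, *AT1G26380* and *AT4G09070* were not called (edgeR adjusted p = 0.0137 and 0.0105). The call of *AT4G09070* was lost without *cer7-gabi* replicate 2 or 3, *cer7-sail* replicate 3, *riprC* replicate 1, or *riprT* replicate 2 or 3 (edgeR adjusted p from 0.013 to 0.022).

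At 4 other genes the *ripr* mean was the highest of the 3 groups, as it also was at *ARF10*, *AT4G10613* and *AT1G26380*. The *cer7* mean was the lowest at *AT2G05160*, *AT2G23834* and *AT5G64540* as well. *AT2G05160*, a CCCH zinc finger gene, had 37.4, 15.3 and 13.6 CPM in the *cer7-gabi* libraries and 36.2 and 38.3 CPM in the *cer7-sail* libraries, against 75.3 to 178 CPM in the *ripr* libraries (median 127) and 66.3, 38.3 and 35.2 CPM in Col-0 (log2 fold change −2.21, standard error 0.381, edgeR adjusted p = 0.00028). *AT2G23834*, uncharacterized, had 2.88, 7.67 and 5.45 CPM in the *cer7-gabi* libraries and 36.2 and 12.8 CPM in the *cer7-sail* libraries, against 48.2 to 129 CPM in the *ripr* libraries (median 68.8) and 30.6, 52.6 and 35.2 CPM in Col-0 (log2 fold change −2.69, standard error 0.441, edgeR adjusted p = 8.08e-05). Its *cer7-sail* replicate 1 was the highest *cer7* library, and without it the log2 fold change was −3.36. *AT5G64540*, annotated as a mucin-like protein, averaged 45.2 ± 19.3 CPM in *cer7* and 123 ± 33.8 CPM in *ripr* (SD, n = 5 and 6), beside 94.6 CPM in Col-0 (log2 fold change −1.41, standard error 0.279, edgeR adjusted p = 0.000988). *SAP130b*, annotated as a CPSF A subunit protein, averaged 42.1 ± 15.5 CPM in *cer7* and 91.4 ± 14.3 CPM in *ripr* (SD, n = 5 and 6), but only 7.77% of its 21-base words occurred once in the genome, beside 27.3 CPM in Col-0, and its call (log2 fold change −1.11, standard error 0.269, edgeR adjusted p = 0.00851) was lost when any of 8 of the 11 libraries was left out, all but *cer7-gabi* replicate 2 and *riprC* replicates 2 and 3 (edgeR adjusted p from 0.0121 to 0.0318). It was also lost with only the 11 libraries in the fit (edgeR adjusted p = 0.0104). The last of the 11, *AT5G28070*, an identifier not annotated in the reference used here, averaged 41.6 ± 16.3 CPM in *cer7* and 89.6 ± 20.5 CPM in *ripr* (SD, n = 5 and 6) beside 127 CPM in Col-0, and was the only 1 of the 11 whose libraries overlapped (log2 fold change −1.10, standard error 0.267, edgeR adjusted p = 0.00834).

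Most abundant loci lay within 2-fold of each other in the mutants. Of 973 tested genes with a mean of at least 100 CPM in *cer7* or *ripr*, 726 (74.6%) had a 95% interval of the log2 fold change that lay inside −1 to 1, while 52 were called higher and 6 lower in *cer7*. Among the 172 of them on the study's list of *cer7* loci, 76 had such an interval, 47 were called higher and 1 lower. The cytokinin response factor gene *CRF2* (chr4:12376122-12378032) gave the most siRNAs of the genes that were raised in both mutants to a like level. It had 54059.7, 48417 and 54851 CPM in the *cer7-gabi* libraries and 35113 and 37319.9 CPM in the *cer7-sail* libraries, against 29768 to 45648 CPM in the *ripr* libraries (median 36833) and 128, 158 and 172 CPM in Col-0, a log2 fold change of 0.32 (95% interval −0.02 to 0.66). *AT5G54940* (chr5:22307982-22309453), which encodes a SUI1 family translation initiation factor, had 15014, 15369 and 17857 CPM in the *cer7-gabi* libraries and 14641 and 18611 CPM in the *cer7-sail* libraries, against 15277 to 22232 CPM in the *ripr* libraries (median 20174) and 81.6, 76.5 and 115 CPM in Col-0, a log2 fold change of −0.24 (95% interval −0.51 to 0.02). In both genes the libraries of the mutants overlapped and lay far above Col-0.

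The other 4 of the 6 most abundant loci within 2-fold had levels in Col-0 of the same order as in the mutants. At *AT4G14810* and *AT3G06435* the interval was wholly negative, so *cer7* was lower than *ripr*, though by less than 2-fold. *AT4G14810* averaged 81907 ± 18631 CPM in *cer7* and 122763 ± 19600.3 CPM in *ripr* (SD, n = 5 and 6) beside 167957 CPM in Col-0 (95% interval of the log2 fold change −0.85 to −0.32), and *AT3G06435* averaged 55956 ± 9039 CPM in *cer7* and 76046 ± 15801 CPM in *ripr* (SD, n = 5 and 6) beside 85682 CPM in Col-0 (−0.70 to −0.18). *AT4G27930* averaged 20727 ± 1749 CPM in *cer7* and 23014 ± 1934 CPM in *ripr* (SD, n = 5 and 6) beside 25735 CPM in Col-0, and *AT2G16030* averaged 12103 ± 1967 CPM in *cer7* and 11342 ± 553 CPM in *ripr* (SD, n = 5 and 6) beside 11928 CPM in Col-0. *AT4G14810*, *AT3G06435* and *AT2G16030* each overlap another annotated gene. Of 279 pentatricopeptide repeat (PPR) genes 20 were tested and of 138 NBS-LRR disease resistance genes 31, none was called, and the median log2 fold changes were −0.28 and −0.44. Over all tested genes 2.50% were called higher and 0.377% lower. At lists of this size, and for the light-harvesting genes below, the absence of calls therefore says little. The summed level of the PPR genes was 15389.7 to 24816 CPM in *cer7*, 20249 to 32767 CPM in *ripr* and 19124 to 19550.2 CPM in Col-0, and that of the NBS-LRR genes was 3945 to 5226 CPM in *cer7*, 5543 to 6692 CPM in *ripr* and 4801 to 5123 CPM in Col-0. Of 19 nuclear genes for light-harvesting proteins 15 were tested and none was called, with a median log2 fold change of 0.44, and their summed level was 1609 to 3959 CPM in *cer7*, 1598 to 2457 CPM in *ripr* and 1476 to 2266 CPM in Col-0. Among all tested genes 668 had an unadjusted p below 0.05 and 205 an adjusted p below 0.05 in edgeR.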

How the data were processed

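Small RNAs of *Arabidopsis* flower buds were sequenced in 20 libraries (5 *cer7*, 6 *ripr*, 6 *rst1*, 3 Col-0). The authors trimmed reads with cutadapt 1.18 and aligned them to TAIR10 without mismatches, using ShortStack in what the study calls unique mode. They then extracted the reads of 21 and 22 nt and deposited raw counts per gene. The counter, its use of strand and its handling of overlapping genes are not given in the sources used here. No library column was left unused.

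Genes were kept by filterByExpr on the 4 groups and scaled by TMM. edgeR 4.0.16 quasi-likelihood tests (R 4.3.3) were fitted over all 20 libraries, after tests on simulated data, and genes were called at a Benjamini-Hochberg adjusted p below 0.01 and a log2 fold change beyond 1. The standard error is the fold change over the root of F. Robust fitting with legacy dispersions was chosen from 4 combinations of these settings after their counts of calls had been seen, as the one that gave the number of calls of an earlier analysis of these data. The other 3 are among the alternatives. The samples behind a p-value are plants pooled per library, so the p-values measure the spread between these libraries.

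The genes named were, by rule, the 12 largest changes in each direction without overlap between libraries, the 5 lowest adjusted p, called genes of the lists, genes named in earlier work, and the 6 most abundant genes within 2-fold. Not every called gene is reported here. Members and lists were chosen with earlier results of these data known. Alternatives changed normalization, filter, test (DESeq2 1.42.0, glmTreat), threshold, libraries, depth and a replicate block. Sequences and positions are from RefSeq on TAIR10.1, which held 26718 of the 27415 identifiers.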

Additional observations from a re-analysis of the deposited data

Results flagged for a closer look

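In 110 groups of *cer7* or *ripr* libraries of the named genes, 5 had a library apart from the rest by Dixon's criterion, where chance gives 5.5. *AT5G10400*, an H3 gene, had 157.4 CPM in *cer7-sail* replicate 3, against 79.3 CPM in the next *cer7* library. Among *ripr* libraries, the H4 gene *AT3G53730* had 330.0 CPM in *riprC* replicate 1, against 142.7 CPM in the next library. The dehydrin gene *ERD10* had 104.9 CPM in *riprC* replicate 3, against 53.8 CPM in the next. *AT5G15950* and *AT5G15948*, which share their reads, had 107.1 CPM in *riprT* replicate 2, against 50.2 CPM in the next.

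*AT5G44770* differed between the *cer7* lines, with a log2 fold change of 3.21 (*cer7-gabi* minus *cer7-sail*, edgeR adjusted p = 0.000126).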

How the results depend on the processing

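The main counts were 73 genes higher and 11 lower in *cer7* than in *ripr*. An adjusted p of 0.05 gave 111 and 20. With library size in place of TMM 54 were higher and 69 lower, and the median log2 fold change of all tested genes moved to −0.27, against 0.03 with TMM. Without a filter 73 were higher and 21 lower, and with a mean of at least 10 counts 72 and 7. A test against a 2-fold change (glmTreat) left 26 and 2. With 7 groups by allele the counts were 70 and 26, with *cer7-gabi* alone 54 and 18, with *cer7-sail* alone 69 and 20, with *riprT* alone 51 and 23, and with *riprC* alone 38 and 15. With only the 11 *cer7* and *ripr* libraries they were 52 and 8, which ended 13 calls of named genes, and with counts thinned to the smallest total 57 and 8. DESeq2 gave 79 and 14. The cause of these shifts was not tested. Of the settings added after seeing the data, robust fitting with the dispersions of edgeR version 4 gave 79 and 11, the same without robust fitting 80 and 13, and legacy dispersions without robust fitting 73 and 13. Leaving out 1 library gave 53 to 96 higher and 8 to 14 lower, and 670 to 725 genes within 2-fold, against 726.

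With the replicate number as a block 72 were higher and 14 lower. Same-numbered *cer7* and *ripr* libraries had r from −0.138 to 0.113 over 10 pairs, against −0.151 to 0.138 over 20 pairs with other numbers. With only 2 *cer7-sail* libraries, their deviations from the line mean mirror each other, so their pairs cannot show a shared deviation. For *cer7-gabi* the same-numbered pairs had r from 0.00182 to 0.113, and the others from −0.151 to 0.0991. The check thus could not settle whether the numbers pair samples, and the main fit did not pair them. Within a mutant, the 5 same-numbered pairs had r from 0.0162 to 0.191 and the 10 others from −0.191 to 0.0699. The block ended 1 call of a named gene, *AT1G07660*.

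Of 48 named genes that were called, 14 kept the call under every alternative in which they were tested (12 of them were tested under all 28), 39 did with each library left out (37 of them were tested in all 11 such fits), and 0 reversed. At low counts depth limits the values: a count of 3 in a library corresponded to 7.67 to 12.8 CPM in *cer7* and 8.67 to 15.7 CPM in *ripr*.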
